A study of Rattus norvegicus with 4 samples.

Results

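The phagocyte NADPH oxidase and its homologues were described in NR8383, an established line of rat alveolar macrophages that was derived from lung lavage of a normal rat. The members were 8 genes chosen by name: the oxidase genes Cybb, Cyba, Ncf1, Ncf4 and Rac2 of phagocytes and the homologous oxidases Nox1, Nox4 and Duox2. All 8 were measured, among 16506 named genes in all, through 10 probes with 28 spots on each array. The series holds 1 group. Its cells, used after 20 passages and grown before with 15% heat-inactivated fetal bovine serum, stood for 48 h in flasks of 25 cm2 and were then kept for 4 h in DMEM with 10% fetal bovine serum. No other agent, allele or treatment is named, and what the letters ALI in the sample names stand for is not given in the sources used here. Total RNA of 4 biological replicates was labelled with Cy3 and hybridised to 1 one-colour Agilent array each. The labels do not say further how the replicates were separated, so the spread given here is that between these 4 samples. With 1 group no treatment could be compared, and the data answer which oxidase genes the line transcribed, how firmly each was measured, and how the replicates differed.

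Phagocytes use this oxidase to make the respiratory burst. The membrane pair encoded by Cybb and Cyba passes electrons from NADPH inside the cell to oxygen on the other side of the membrane, where superoxide forms. The pair is idle until cytosolic proteins, among them those encoded by Ncf1 and Ncf4, and a Rac GTPase join it, and inherited loss of any of several of these genes causes chronic granulomatous disease. Alveolar macrophages carry the oxidase to act on inhaled microbes and particles. Nox1, Nox4 and Duox2 encode related catalytic proteins best known from colon epithelium, kidney and thyroid.

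All 5 genes of the phagocyte oxidase were detected on every array and none of the 3 homologues was. A gene was counted as detected when most spots of at least 1 of its probes carried, on all 4 arrays, the scanner software's flag for a signal well above background. By that call 5 of 8 members were detected, where the share over all named genes was 53.1%. Asking for 3 arrays only left the same 5 members and took the share of named genes to 57.3%. The members not detected were Nox1, Nox4 and Duox2, and each was well above background on no array, which held for 34.4% of all named genes. The division lay between Cybb to Rac2 on one side and the 3 homologues on the other. Both counts, 5 of 8 and 3 of 8, were near these shares of all named genes. They are therefore no result about the members as a set. The members were listed with earlier results of these arrays known, so this division is a description. In bulk RNA, fewer cells that transcribe a gene and less RNA per cell cannot be told apart.

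**Figure D1:**
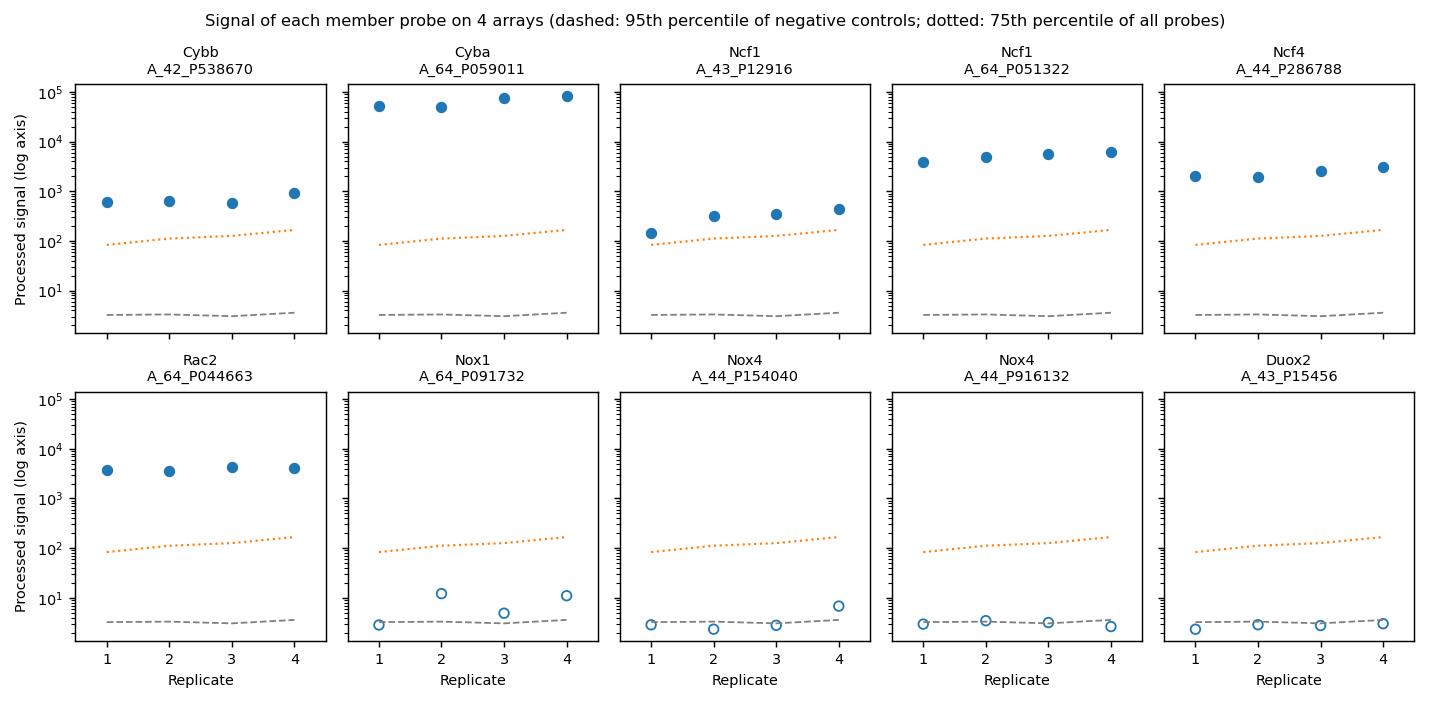
Processed signal (log axis, arbitrary units) of each of the 10 probes of the members on replicates 1 to 4, with filled points for arrays on which most spots were well above background and open points for the others. The dashed line is the array's 95th percentile of negative controls and the dotted line its 75th percentile of all probes; every point of Cybb, Cyba, Ncf1, Ncf4 and Rac2 is filled and lies above the dotted line, while those of Nox1, Nox4 and Duox2 are open.

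Signals are given as the processed signal in arbitrary units and as a scaled level, which is log2 of the ratio between the signal and the 75th percentile of all probes on the same array. The scaled level describes 1 probe across arrays, and levels of different probes are not set against each other. As a second measure each probe was set against the array's 95th percentile of negative control spots, which lay between 3.07 and 3.60 on the 4 arrays, with limma fitted on all 45280 probes and Benjamini-Hochberg adjusted one-sided p-values. That test called 60.6% of probes and 69.8% of named genes. It called 6 of the 8 members, the 5 phagocyte genes and Nox1. The size of a difference to negative controls depends on how background is handled, because the controls lie at background, and it is therefore given also after normexp correction with an offset of 50, which lifts the lowest signals.

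Cybb encodes the large catalytic subunit of the phagocyte oxidase, the flavocytochrome chain that binds NADPH and heme. Its single spot read 613, 628, 586 and 941 on replicates 1 to 4, with an error estimate by the software of 61.3, 62.8, 58.6 and 94.2. The unscaled signal was therefore highest on replicate 4 and alike on the other arrays within that error. After scaling, the levels were 2.88, 2.49, 2.21 and 2.49, so replicate 1 was the highest and replicate 3 the lowest. The mean scaled level was 2.52 ± 0.27 (SD, n = 4). The log2 difference of Cybb to negative controls was 7.68 with a standard error of 0.17 (limma, adjusted p = 4.38e-08), positive on 4 of 4 arrays, and 3.53 under normexp (adjusted p = 6.16e-06).

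Cyba encodes the small membrane subunit, which pairs with the catalytic chain, stabilises it and offers the docking site for the organiser. Its probe was printed 10 times on each array, and the geometric mean over the spots used was 52838, 50607, 73768 and 83846 on replicates 1 to 4. Replicates 3 and 4 were thus brighter than replicates 1 and 2 before scaling. The scaled levels were 9.31, 8.82, 9.19 and 8.97, with a mean of 9.07 ± 0.22 (SD, n = 4), and replicate 1 was then the highest and replicate 2 the lowest. No spot was saturated. The log2 difference to negative controls was 14.24 with a standard error of 0.19 (limma, adjusted p = 2.11e-08), and 9.90 under normexp.

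The sequences before the annotated starts of these genes are shown because Cybb and Nox1 encode homologous catalytic chains of which only the first was detected, and Cyba encodes the partner of Cybb. RefSeq's promoter table on the build GRCr8 held 6 of the 8 members, and the 250 bases before the start were read for each. The Cybb bases lie at chrX:16065066-16065315, those of Cyba at chr19:67404215-67404464 and those of Nox1 at chrX:101595521-101595770, all on the minus strand and printed 5′ to 3′. Capitals mark matches to 6 motifs searched on both strands: GAGGAA (the core of many PU.1 sites), CCAAT (the CCAAT box), the interferon response element (a pair of GAAA with any 2 bases between them), TATAAA (the TATA box), GGGCGG (the GC box) and TGANTCA (the AP-1 site). No matches shared bases here.
Cybb: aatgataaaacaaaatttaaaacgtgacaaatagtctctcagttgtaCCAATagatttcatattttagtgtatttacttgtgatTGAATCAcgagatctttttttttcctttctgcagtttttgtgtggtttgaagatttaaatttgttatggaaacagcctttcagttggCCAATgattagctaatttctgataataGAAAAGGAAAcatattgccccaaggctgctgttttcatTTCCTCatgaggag
Cyba: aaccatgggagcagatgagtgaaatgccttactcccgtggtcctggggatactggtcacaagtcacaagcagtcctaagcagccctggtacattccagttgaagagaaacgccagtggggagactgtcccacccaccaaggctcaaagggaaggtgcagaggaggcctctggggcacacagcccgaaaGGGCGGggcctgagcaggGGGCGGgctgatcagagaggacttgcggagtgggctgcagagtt
Nox1: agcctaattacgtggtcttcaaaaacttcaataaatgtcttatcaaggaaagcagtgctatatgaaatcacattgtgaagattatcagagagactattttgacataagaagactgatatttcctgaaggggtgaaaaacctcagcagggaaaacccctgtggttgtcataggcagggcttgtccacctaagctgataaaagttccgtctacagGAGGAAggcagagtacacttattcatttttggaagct
The Cybb window held 2 CCAAT motifs, 1 interferon response element, 1 AP-1 site and, 14 to 9 bases before the start, GAGGAA on the opposite strand. Cyba held 2 GC boxes and none of the other motifs, and Nox1 held 1 GAGGAA, 37 to 32 bases before its start. GAGGAA was present in 23.3% of all 33469 windows of this length and in 23.2% of the windows of detected genes, the CCAAT box in 34.0% and 36.2%, the interferon response element in 3.41% and 2.93%, the AP-1 site in 6.34% and 4.70%, and the GC box in 30.5% and 57.0%. Of the other members with a window, Ncf1 held 1 interferon response element and 1 GC box, Nox4 2 GC boxes, and Duox2 1 each of the TATA box, the GC box and the AP-1 site. The TATA box was present in 12.9% of all windows. So GAGGAA was found before 1 detected member and 1 member that was not detected. The windows also differed in base composition, with a GC content of 32.0% for Cybb, 59.6% for Cyba, 58.4% for Ncf1, 40% for Nox1, 72.8% for Nox4 and 53.6% for Duox2, where the median window had 51.2%. Matches to letters are descriptions, not binding sites.

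Ncf1 encodes the organiser, the cytosolic adaptor that is phosphorylated when a phagocyte is stimulated and carries the complex to the membrane. It was measured by a pair of probes with 1 spot each, which behaved differently across the arrays. The probe A_64_P051322 read 3918, 5001, 5658 and 6157 on replicates 1 to 4, at scaled levels of 5.55, 5.48, 5.48 and 5.20. Its mean scaled level was 5.43 ± 0.16 (SD, n = 4), with replicate 4 the lowest. The probe A_43_P12916 read 145, 326, 354 and 437, at scaled levels of 0.80, 1.54, 1.49 and 1.38. Here replicate 1 stood below the other arrays, and the mean scaled level was 1.30 ± 0.34 (SD, n = 4), or an SD of 0.079 over replicates 2 to 4. Replicate 1 minus the mean of the others was 0.17 for the first probe and -0.67 for the second, so the first did not share the drop. The drop of the second probe held in all 4 scalings tried. It was -0.76 with the percentile taken over detected probes, -0.69 under quantile normalization and -0.61 under normexp with quantile normalization. The first probe gave 0.076, 0.012 and 0.074 in the same order. Under quantile normalization its replicate 1 lay below replicates 2 and 3, so a rise of that probe on replicate 1 was not established. Both probes carry the same transcript accession, and where on the transcript each lies is not given in the sources used here. The gene's mean over both probes was 3.37 ± 0.16 (SD, n = 4), and this SD does not show the difference between them. Both were above negative controls, by log2 differences of 10.60 with a standard error of 0.18 and 6.47 with a standard error of 0.28 (limma, adjusted p = 2.29e-08 and 7.64e-07), and by 6.38 and 2.55 under normexp.

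Ncf4 encodes the small cytosolic regulator, whose lipid-binding domain recognises a phosphoinositide of the phagosome. Its single spot read 2053, 1965, 2508 and 3059 on replicates 1 to 4. The scaled levels were 4.62, 4.13, 4.31 and 4.19, with a mean of 4.31 ± 0.22 (SD, n = 4). Replicate 1 was the highest after scaling, and replicates 2 to 4 lay within an SD of 0.090. The log2 difference to negative controls was 9.48 with a standard error of 0.18 (limma, adjusted p = 2.72e-08), and 5.11 under normexp.

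Rac2 encodes the Rac GTPase of blood cells, which in its GTP-bound form switches the assembled oxidase on. Its probe was printed 10 times and read 3773, 3587, 4357 and 4177 on replicates 1 to 4. Unscaled, the brightest array was 1.21 times the dimmest, the smallest such ratio among the 5 detected members' probes. The 75th percentile of all probes was meanwhile 83.4, 112, 126 and 167, so the scaled levels were 5.50, 5.00, 5.11 and 4.64, and the brightest array became 1.81 times the dimmest. The mean scaled level was 5.06 ± 0.35 (SD, n = 4), with replicate 1 the highest and replicate 4 the lowest. Replicate 1 exceeded the mean of the others by 0.58, a difference reached or passed by 14.5% of detected genes. The log2 difference to negative controls was 10.23 with a standard error of 0.16 (limma, adjusted p = 2.15e-08), and 5.96 under normexp.

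The repeated spots of Cyba and Rac2 show how single spots of a probe scattered within an array. The SD of single spots within an array is given pooled, as the root of the mean variance over the 4 arrays. For Rac2 it was 0.11 on the log2 scale, from 0.045 on replicate 4 to 0.16 on replicate 1. Its spots on replicate 1 lay between 5.19 and 5.69, on replicate 2 between 4.74 and 5.16, on replicate 3 between 5.05 and 5.26 and on replicate 4 between 4.57 and 4.71. The spots of replicate 4 lay below all those of the other arrays, and those of replicate 1 overlapped with replicate 3 but not with replicates 2 and 4. For Cyba the pooled SD within an array was 0.20, from 0.069 on replicate 4 to 0.25 on replicate 2. Its spots lay between 8.86 and 9.63 on replicate 1 and between 8.45 and 9.08 on replicate 2. On replicate 3 they lay between 8.74 and 9.34 and on replicate 4 between 8.84 and 9.06, so the arrays overlapped. Spots of 1 array share a sample, so their scatter is technical and is no measure of the spread between samples. On replicate 4 the software marked 1 spot of Cyba and 2 of Rac2 as outliers, and these were left out. Of the 10 Cyba spots 1 lay within 10 rows and columns of a part of the array surface that was dim on replicate 4. Without that part the mean scaled level of Cyba was 9.04 ± 0.20 (SD, n = 4).

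The Cyba spots on replicate 2 fell into separate sets by their place on the array, a split chosen after its values were seen. The 5 spots in rows up to 181 read between 58026 and 60526, and the 5 in rows from 185 on between 39041 and 45234. The first set was higher by 0.45 on the log2 scale, whereas over 1284 probes printed at least 10 times this difference had a median of -0.027 on that array with the 5th and 95th percentiles at -0.41 and 0.34. The same Cyba spots differed by -0.062 on replicate 1, 0.20 on replicate 3 and 0.032 on replicate 4, and the Rac2 spots by 0.026 on replicate 2. Its part in the lower scaled level of Cyba on replicate 2 was not tested.

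**Figure D2:**
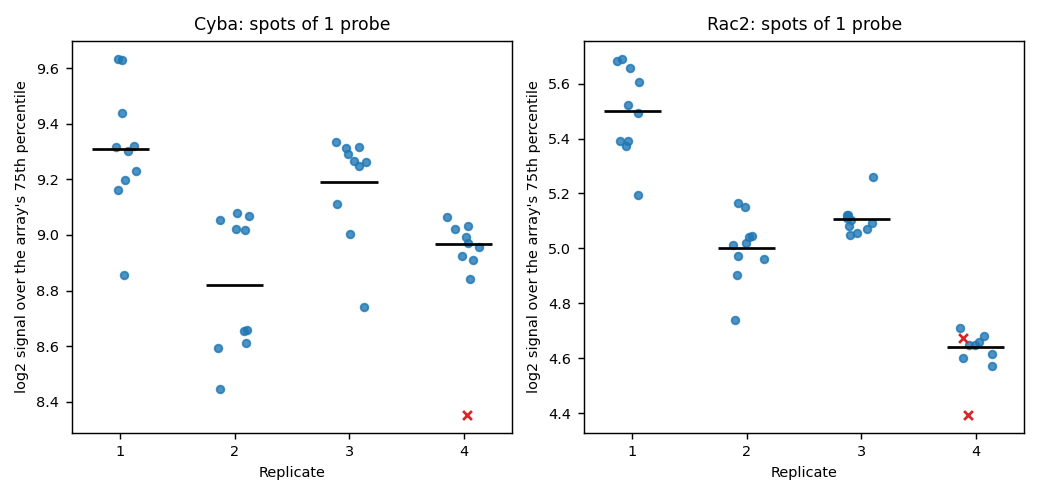
Scaled level (log2 signal over the array's 75th percentile) of every spot of the Cyba and Rac2 probes on replicates 1 to 4; points are spots, red crosses spots marked as outliers, and bars the mean of the spots used. Rac2 spots on replicate 1 lie between 5.19 and 5.69 and those of replicate 4 between 4.57 and 4.71, while the Cyba spots of replicate 2 form an upper and a lower set.

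Across the 5 detected members the replicates agreed about as closely as for other genes. Their SDs were between 0.16 for Ncf1 and 0.35 for Rac2 with a median of 0.22, where the median over all 8772 detected genes was 0.24. Replicate 1 was the array farthest from the mean for 4 of these 5, and for 54.7% of all detected genes. It was the highest for Cybb, Cyba, Ncf4 and Rac2, against 42.3% of detected genes, and the lowest for Ncf1, against 32.8%. Replicate 4 was the lowest for Rac2 alone of the 5, against 32.7%. Without replicate 1 the median SD of the 5 members was 0.16, and over all detected genes it was 0.15. The excess of replicate 1 depended on the scaling. For Rac2 it was 0.58, and between 0.43 and 0.49 under the other 3 scalings. For Cyba it was 0.32, 0.23 with the percentile over detected probes, 0.11 under quantile normalization and -0.018 under normexp with quantile normalization, so its direction was not stable. For Ncf4 the excess was 0.41, 0.32, 0.26 and 0.10 and for Cybb 0.48, 0.39, 0.40 and 0.26 in the same order.

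**Figure D3:**
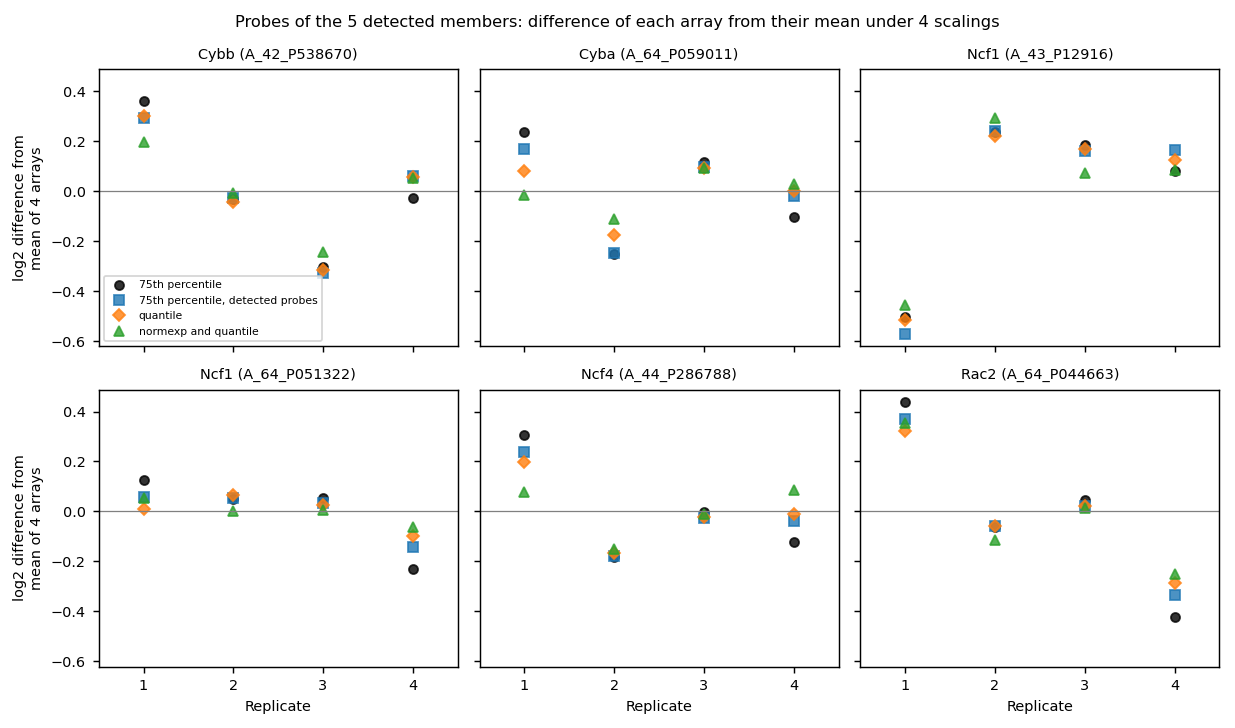
Difference of each array from the mean of the 4 arrays (log2) for the 6 probes of the detected members, under the 75th percentile of all probes, the 75th percentile of detected probes, quantile normalization, and normexp with quantile normalization. Replicate 1 of Rac2 and Cybb lies above 0 in all 4, the Ncf1 probe A_43_P12916 lies below 0 on replicate 1 in all 4, and Cyba on replicate 1 runs from 0.24 to -0.013.

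Nox1 encodes the catalytic subunit best known from colon epithelium. Its spot read 2.84, 12.2, 4.91 and 11.05 on replicates 1 to 4. It was well above background on no array but positive and significant, the software's looser flag, on all 4, as were 66.9% of named genes. Replicates 2 and 4 lay at 3.66 and 3.07 times the negative control percentile, replicate 3 at 1.60 times and replicate 1 at 0.877 times, so replicates 2 and 4 carried the signal. The log2 difference to negative controls was 1.0 with a standard error of 0.36 (limma, adjusted p = 0.0287), positive on 3 of 4 arrays. The call was lost without replicate 2 (limma, adjusted p = 0.119), without replicate 4 (adjusted p = 0.0831) and under normexp on median signals (log2 difference 0.14, adjusted p = 0.0688).

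Nox4 encodes an oxidase that is active without the cytosolic subunits and is abundant in kidney. It was measured by a pair of probes, for the accessions NM_053524 and XM_008759643. The first read 2.87, 2.34, 2.80 and 6.82 and the second 2.96, 3.47, 3.19 and 2.64 on replicates 1 to 4. Apart from the first probe on replicate 4, which was 1.90 times the negative control percentile and flagged positive and significant, no reading passed that looser flag. The log2 differences to negative controls were 0.027 with a standard error of 0.26 and -0.11 with a standard error of 0.17 (limma, adjusted p = 0.603 and 0.897). Readings that fail the looser flag stood close to the software's own error estimate, so they bound the signal and have no order among arrays. The difference and standard error of the second probe describe readings at that floor only.

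Duox2 encodes a dual oxidase that makes the hydrogen peroxide used in thyroid hormone synthesis. Its spot read 2.34, 2.88, 2.77 and 3.02 on replicates 1 to 4, and the background-subtracted signal was negative on all 4 arrays, between -2.57 and -1.01. The software's own error estimates were 2.34, 2.89, 2.78 and 3.03, close to these readings, and no reading passed the looser flag. The log2 difference to negative controls was -0.27 with a standard error of 0.16 (limma, adjusted p = 0.985). Both values describe readings at that floor and are no estimate of the transcript's level or spread. Nothing above the negative controls was measured for Duox2, and a transcript too rare for this probe would read the same.

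Other genes of the pathway were looked up in 5 lists with 56 genes, of which 47 were measured and 38 detected, set beside 53.1% of all named genes. Among other oxidase subunits and partners 3 of 8 were detected. Rac1, the widely expressed Rac GTPase, read scaled levels of 4.24, 3.99, 3.47 and 2.31, with a mean of 3.50 ± 0.86 (SD, n = 4). Its spot lay in or within 10 rows and columns of the part of the array surface that was dim on replicate 4. No value was left without that part. Cybc1, a chaperone of the membrane subunits, lay at 3.29 ± 0.33 (SD, n = 4), with replicate 1 the lowest at 2.81 and the others between 3.40 and 3.54. Duoxa2, the maturation factor of Duox2 whose gene follows it directly in the RefSeq annotation, was detected at -1.02 ± 0.17 (SD, n = 4) although Duox2 itself was not. Noxa1, the activator protein of Nox1, was well above background on 3 arrays and Duoxa1, the maturation factor of Duox1, on 1. Both Noxa1 and Duoxa1 passed the looser flag and the limma test. The oxidases Nox3 and Duox1 and the adaptor Sh3pxd2a were well above background on no array, though Sh3pxd2a passed the looser flag and the limma test. Noxo1, Poldip2 and Sh3pxd2b had no matched probe and were not analysed here.

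Genes that assemble and activate the oxidase were detected for 15 of 17. They included the kinase Prkcd, which phosphorylates the organiser, at 2.30 ± 0.12, and the lipid kinases Pik3cg at -1.85 ± 0.46 and Pik3cd at -1.11 ± 1.07 (SD, n = 4). Pik3cd was detected by 1 of its 2 probes, and replicate 1 stood at 0.47 where the others lay between -1.78 and -1.38. The exceptions were the kinases Prkcb and Prkcz, well above background on no array. Prkcb passed the looser flag and the limma test, and Prkcz passed neither. Of the 11 spots of Prkcb 1 lay in or near the dim part of the surface.

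All 6 genes of NADPH supply were detected, with Pgd, a dehydrogenase of the pentose phosphate pathway, at 4.19 ± 0.67 and the isocitrate dehydrogenase gene Idh1 at 3.41 ± 0.16 (SD, n = 4). Pgd was highest on replicate 1, at 5.15 against 3.62 to 4.14 on the others. Of the list for superoxide removal and peroxidases 8 of 9 were detected. The superoxide dismutases lay at 7.18 ± 0.05 for the cytosolic Sod1, 4.44 ± 0.21 for the mitochondrial Sod2 and -2.74 ± 0.21 for the extracellular Sod3 (SD, n = 4), and the eosinophil peroxidase gene Epx was the exception. Of the 10 spots of Sod3 1 lay in or near the dim part of the surface.

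Of 7 transcription factors known to act on Cybb 6 were detected. Spi1, which encodes PU.1, lay at 3.78 ± 0.11, Irf1 at 2.48 ± 0.37 and Irf2 at 2.37 ± 0.26 (SD, n = 4), the last by 1 of its 2 probes. Irf8 was the exception and was well above background on 1 array, with scaled levels of -2.39, -4.25, -4.92 and -5.49 on replicates 1 to 4. It passed the limma test but not the looser flag. The Irf8 spot also lay in or near the dim part of the array surface, whose part in these values was not tested.

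Marker lists were read for the line and for other cell types known for these oxidases. All 7 macrophage markers measured were detected, among them Cd68 at 7.44 ± 0.17 and Csf1r at 1.84 ± 0.39 (SD, n = 4). Neutrophils also carry the phagocyte oxidase, and 1 of 6 of their markers was detected, Camp at 2.28 ± 0.37 (SD, n = 4), while Elane and S100a8 were well above background on no array. For B cells 1 of 3 was detected, Pax5 at 0.35 ± 0.11 (SD, n = 4), and Cd79b was well above background on no array but passed the looser flag and the limma test. Of the tissues known for the homologues, colon and airway epithelium had 0 of 6 markers detected, with Epcam and Cdh1 well above background on no array. Of the 6, 2 passed the looser flag and 1 the limma test. Sftpc, named after its values were seen, passed both and was well above background on 2 arrays. Thyroid had 1 of 4, Tg at -0.87 ± 0.63 (SD, n = 4) by 2 of its 3 probes, with Tshr on no array. Kidney tubule had 1 of 4, Aqp2 at -2.12 ± 0.41 (SD, n = 4), with Umod on 2 arrays and Lrp2 on none, and 3 of the 4 passed the looser flag and the limma test. Among them Slc12a1, named after its values were seen, was well above background on 3 arrays. Fibroblasts and smooth muscle had 0 of 5, with Col1a1 well above background on 1 array and Col3a1 on none. Acta2 was well above background on 3 arrays and Myh11 on 1, both named after their values were seen. Of the 5, 3 passed the limma test and 2 the looser flag. Endothelium had 3 of 4, with Pecam1 at 0.19 ± 0.72 and Cdh5 at -0.87 ± 0.14 (SD, n = 4). The third was Vwf at 4.16 ± 0.17 (SD, n = 4), named after its values were seen and detected by 1 of its 2 probes. Kdr was well above background on 1 array. The Cdh5 spot lay in or near the dim part of the surface as well.

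**Figure D4:**
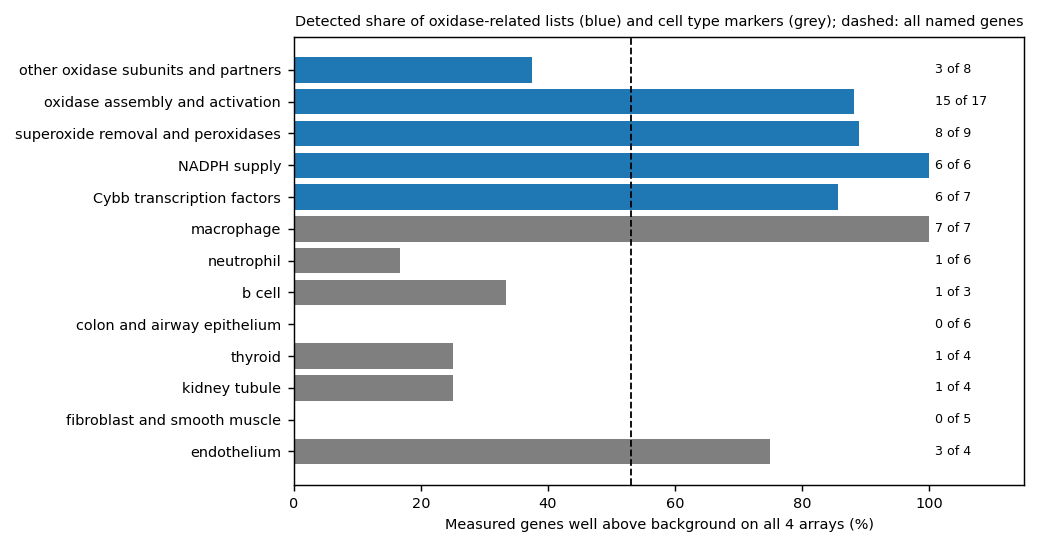
Share of measured genes well above background on all 4 arrays (%, bars from 0) in 5 lists of oxidase-related genes (blue) and 8 lists of cell type markers (grey), with the counts beside each bar. The dashed line is the share over all named genes, 53.1%; other oxidase subunits and partners reached 3 of 8, NADPH supply 6 of 6, macrophage markers 7 of 7 and neutrophil markers 1 of 6.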

How the data were processed

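The 4 arrays were 1-colour Agilent scans, 1 per biological replicate. Scans were quantified in Agilent Feature Extraction 11.0.1.1, per the submitters' processing notes. Each deposited value is the linear intensity of a spot, per the file headers, with background handled within each array and no scaling between arrays; the other columns used are the software's flags, per the file headers. Between 50.9% and 58.9% of 58717 non-control spots per array were well above background, and no spot was saturated. The number of arrays limits the precision.

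Outlier spots (between 440 and 1206 per array) were left out, spots of a probe averaged on the log2 scale, and each array's 75th percentile over probes subtracted. Of 45598 probes 318 had an array with outliers only and were left out. A gene's level is the mean of its detected probes, or of all its probes where none was detected. The files hold no gene name column, so unversioned accessions were matched to RefSeq symbols of GRCr8, which named 17614 of 40539 accessions; a further probe of a member under an unmatched accession would be missed. The header lists the build rn4 and probe positions were not used. All arrays lay on 1 slide, so slide could not be tested as a batch.

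The members and lists were chosen with earlier results of these data known. All members and all other oxidase subunits are named, from each other pathway list the first 3 detected and first 2 not detected genes and all exceptions up to 3, and from each marker list the first 2 of each kind; some genes that this rule names are not reported here. Genes alike in pattern are not named, since 4 replicates of 1 condition allow no such measure.

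Detection against negative controls used limma 3.58.1 (R 4.3.3). The fit was tested on simulated data over 45280 probes, where it called 58% of 50 probes raised by 0.5 log2, 88% at 1, and 100% at 2 and 4, and also called 496 of 17660 probes that were not raised. Normexp used an offset of 50 on median signals. Tables and figures used Python 3.11.15, numpy 2.4.6, pandas 2.3.3 and matplotlib 3.10.9.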

Additional observations from a re-analysis of the deposited data

How the results depend on the processing

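The count of 5 detected members was the same without each replicate, with detection on at least 3 arrays, with outlier spots kept, without the dim part of the surface and with the first probe of a gene, and it was 6, with Nox1 added, under the positive-and-significant flag and the limma test. The limma test called 6 members, and 5, without Nox1, under normexp and without replicate 2 or 4. Pathway genes detected numbered between 37 and 43, and the median SD of detected members was between 0.15 and 0.27. The 1 reversed value was the excess of replicate 1 for Cyba, -0.018 under normexp with quantile normalization. The level of Ncf1 was 1.30 with the probe A_43_P12916 alone (the first in the files), against 3.37. Scaled levels moved when the percentile was taken over detected probes, by construction. Signals near the negative controls (Nox1, Nox4, Duox2) are limited by that background. No paired analysis was possible because the series holds 1 group. The slide as a block was not run, since all arrays share 1 slide.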
